A study of Rattus norvegicus with 4 samples.

Results

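Described here are 6 genes of rod phototransduction and of the photoreceptor outer segment, Gngt1, Rcvrn, Guca1b, Prph2, Rbp3 and Elovl4, in the maturing rat retina. They were chosen by name, from earlier results of these same arrays, out of 9652 genes with values on all 4 arrays. In the platform's gene table they have 10 of the 12750 probes listed with 1 gene symbol. Because the arrays themselves led to the choice, the values of these 6 genes are given as a description and carry no test. Whole retinas of albino Lewis rats kept from birth under ordinary laboratory lighting with day and night were compared at 5, 11 and 20 weeks of age. Retinas were pooled before RNA extraction, and the labels used here give neither the number of rats in a pool nor their sex. The 11-week and 5-week retinas were hybridised together on 2 arrays of the two-colour kind, once in each dye orientation. A second pair of arrays did the same for 20 weeks. The 5-week retina is the common partner of both older ages, and no array held 11 and 20 weeks together.

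Rods are the photoreceptors of dim light, and their outer segment is a stack of membrane discs in which light activates the G protein transducin. Transducin switches on a phosphodiesterase that breaks down cyclic GMP, and the cation channels held open by cyclic GMP then close. Calcium falls when the channels close, and calcium sensors such as recoverin and the guanylate cyclase activating proteins use that fall to end the response and to restore cyclic GMP. Discs are shed and renewed throughout life, which calls for steady synthesis of disc proteins, retinoid carriers and unusual lipids. Of the 6 genes, Gngt1 belongs to rods, whereas Rcvrn, Guca1b, Prph2 and Rbp3 are also used by cones, and Elovl4 is active in other tissues as well.

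The photoreceptor homeobox factor CRX binds the letters TAATCC, so the bases before the start of these genes are shown where a match was found. RefSeq's promoter table for the GRCr8 assembly held 5 of the 6 genes, all but Rcvrn. The 250 bases before the annotated start of Gngt1, Prph2 and Rbp3 follow, 5′ to 3′ on the strand of the gene. Capitals mark TAATCC or its reverse complement GGATTA, and in Gngt1 also TTTATA, the reverse complement of TATAAA.
Gngt1, chr4:32960695-32960944, plus strand: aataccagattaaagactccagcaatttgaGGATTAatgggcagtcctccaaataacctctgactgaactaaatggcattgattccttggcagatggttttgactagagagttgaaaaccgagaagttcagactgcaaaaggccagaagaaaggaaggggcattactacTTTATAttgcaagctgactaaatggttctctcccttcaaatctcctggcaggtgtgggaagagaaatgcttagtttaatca
Prph2, chr9:21579075-21579324, minus strand: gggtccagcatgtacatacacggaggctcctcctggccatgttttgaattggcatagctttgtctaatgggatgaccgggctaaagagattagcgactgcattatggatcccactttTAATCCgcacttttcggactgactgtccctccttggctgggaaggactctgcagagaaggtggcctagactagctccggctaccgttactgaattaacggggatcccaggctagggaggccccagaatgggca
Rbp3, chr16:9273537-9273786, plus strand: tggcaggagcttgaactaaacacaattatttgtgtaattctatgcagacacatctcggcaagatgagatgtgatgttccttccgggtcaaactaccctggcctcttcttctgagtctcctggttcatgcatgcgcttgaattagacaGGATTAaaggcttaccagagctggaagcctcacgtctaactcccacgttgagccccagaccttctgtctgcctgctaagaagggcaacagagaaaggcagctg

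The match began 220 bases before the start in Gngt1, 133 in Prph2 and 103 in Rbp3, and it lay on the strand of the gene in Prph2 and on the opposite strand in Gngt1 and Rbp3. In windows from 250 bases before to 50 after the start, read on both strands, TAATCC was thus present in 3 of the 5 genes, in 8 of 45 other genes of the pathway described below (17.8%) and in 7.17% of all 33469 promoters. The letters TGCTGA, part of the site of the rod factor NRL, were found in 1 of the 5 genes (Guca1b, beginning at base 40 after the start), in 11 of the 45 and in 18.4% of all promoters. CAATTAG, known as the Ret-1 element, was in 0 of the 5, in 3 of the 45 and in 2.06% of all. The window of Elovl4 held none of these letters and was 72.0% G or C, against a median of 51.7% over all promoters. Guca1b and Prph2 both lie on rat chromosome 9. A match in letters is a description of the sequence, and binding was not measured here.

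Every value below is on the log2 scale, older divided by 5-week retina, after each array was centred on the median of its probes with 1 gene symbol. A value of 0 thus means a change like that of the median probe, and -1 a halving against it. The ratios were read as Cy5 over Cy3, the likely direction from the order of ages in the sample titles, and with the opposite reading every sign below is turned. Means are given ± SD over 2 arrays, and no label tells whether both arrays of a dye pair came from separate extractions, so the spread may be technical. Ratios hold no level, so it cannot be seen how strongly a gene was expressed, and retinal identity was not checked by marker levels. In whole retina, fewer cells of a type and less RNA per cell cannot be told apart.

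Across all genes, the arrays resembled each other by dye more than by age. After turning to older over 5 weeks, the 2 arrays of the 11-week pair correlated at r = -0.30 over 9652 genes and those of the 20-week pair at r = 0.17. Arrays of different ages with the older retina in the same dye correlated at 0.68 for Cy5 and 0.60 for Cy3. Genes share their pools and slides and are no independent replicates. For each gene, therefore, both arrays of a pair are given, and agreement between them is reported against the share of all genes that agree in the same way.

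At 11 weeks all 6 genes were below the median probe on both arrays, against 20.2% of all genes lower on both. Their mean changes ran from -0.64 to -0.19 with a median of -0.43, where the fifth percentile of all genes was -0.28. At 20 weeks 5 of the 6 were below it on both arrays, against 26.7% of all genes, and the exception was Gngt1. The 20-week means ran from -0.72 to -0.04 with a median of -0.49, where the fifth percentile of all genes was -0.32. Below 0 on all 4 arrays were 5 of the 6, against 12.1% of all genes. As these genes were picked for low values, the counts describe the choice and are no evidence on it.

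**Figure D1:**
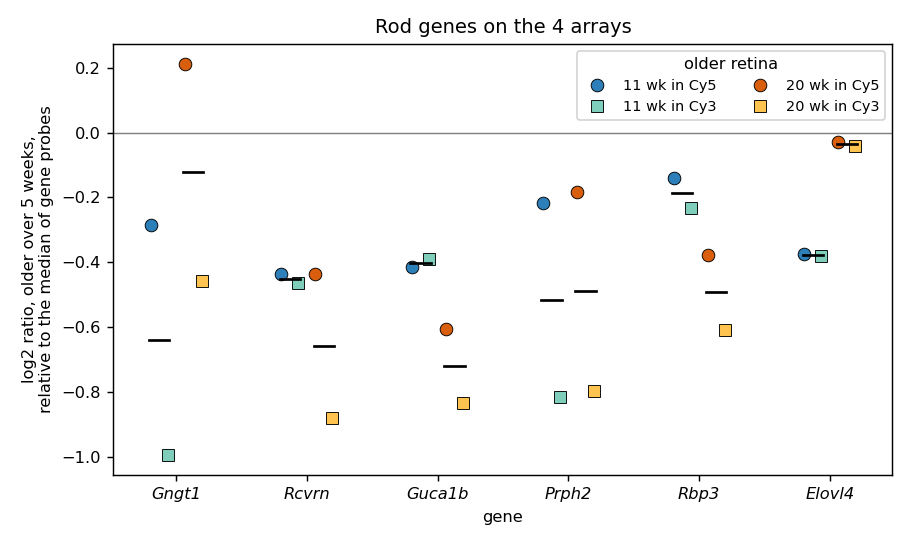
Log2 ratio of the older over the 5-week retina (vertical axis, relative to the median of gene probes) for the 6 rod genes, with 1 point per array and short bars at the mean of the 2 arrays of an age. Rcvrn, Guca1b, Prph2 and Rbp3 lie below 0 on all 4 arrays, Elovl4 lies near -0.38 at 11 weeks and near -0.04 at 20 weeks, and Gngt1 is above 0 on the 20-week array with the older retina in Cy5. With the ratios as deposited, only Guca1b is below 0 on all 4.

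Gngt1 encodes the gamma subunit of rod transducin, which helps to hold the G protein on the disc membrane. On its single probe it stood at -0.28 at 11 weeks with the older retina in Cy5 and at -0.995 with it in Cy3. Its mean of -0.64 ± 0.50 (SD, n = 2), or 0.642-fold, was the lowest of the 6 at 11 weeks and ranked 7 from the bottom of all genes. At 20 weeks it was at 0.21 with the older retina in Cy5 and at -0.46 in Cy3, a mean of -0.12 ± 0.48 in which the 2 arrays disagree in sign. On each Cy5 array Gngt1 was higher than on the Cy3 array of the same age, by 0.71 at 11 weeks and by 0.67 at 20 weeks. The gap between dyes exceeded the mean change at both ages.

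Rcvrn encodes recoverin, the calcium sensor that restrains the kinase Grk1 in the dark. At 11 weeks it stood at -0.435 in Cy5 and -0.465 in Cy3, a mean of -0.45 ± 0.021 (n = 2), or 0.732-fold. At 20 weeks the values were -0.44 and -0.88, a mean of -0.66 ± 0.31, or 0.633-fold, with 0.29% of all genes lower. Recoverin was thus nearly alike on the 2 arrays at 11 weeks and spread wider at 20 weeks, where the array with the older retina in Cy3 was the lowest of the 4.

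Guca1b encodes a guanylate cyclase activating protein, which stimulates cyclic GMP synthesis when calcium is low. It was at -0.41 and -0.39 at 11 weeks, with the older retina in Cy5 and Cy3, for a mean of -0.40 ± 0.017 (n = 2) and a fold of 0.757. At 20 weeks the corresponding values were -0.61 and -0.83, with a mean of -0.72 ± 0.16 and a fold of 0.607, the lowest 20-week mean of the 6 and rank 21 from the bottom of all genes. Guca1b was the only one of the 6 to stay below 0 on all 4 arrays with the ratios as deposited, at -0.46, -0.26, -0.06 and -0.82 in the order given.

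Prph2 encodes peripherin, a tetraspanin of the disc rim without which outer segments do not form in mice. Its single probe gave -0.22 at 11 weeks with the older retina in Cy5 and -0.82 with it in Cy3, a mean of -0.52 ± 0.42 (n = 2), or 0.699-fold. The 20-week arrays gave -0.18 in Cy5 and -0.80 in Cy3, a mean of -0.49 ± 0.43, or 0.712-fold. The same pair of values recurred at both ages, and the gaps between dyes, 0.60 at 11 weeks and 0.61 at 20 weeks, were larger than either mean. All 4 values were below 0, those with the older retina in Cy5 only slightly.

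Rbp3 encodes the interphotoreceptor retinoid-binding protein, which photoreceptors secrete into the matrix around the outer segments. Averaged over 4 probes, it stood at -0.14 in Cy5 and -0.23 in Cy3 at 11 weeks (mean -0.19 ± 0.065, n = 2, 0.879-fold). At 20 weeks it was at -0.38 and -0.61 (mean -0.49 ± 0.16, 0.71-fold), and both 20-week values were below both 11-week values. The 11-week mean was unremarkable among all genes, of which 12.3% were lower, whereas 1.05% were lower at 20 weeks.

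The 4 Rbp3 probes, all listed with the same RefSeq transcript, did not read alike at 11 weeks. Probe 21176 gave -0.52 and -0.46, while the others lay between -0.22 and 0.01 on both arrays. Their 11-week means were -0.49 for probe 21176, -0.12 for probe 8219, -0.11 for probe 18213 and -0.03 for probe 21639. At 20 weeks all 4 probes were below 0 on both arrays, with means of -0.67, -0.23, -0.62 and -0.46 in the same order. Each probe had a lower mean at 20 weeks than at 11 weeks.

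Elovl4 encodes an elongase that makes the very long chain fatty acids of photoreceptor membranes. Its 2 probes averaged -0.37 in Cy5 and -0.38 in Cy3 at 11 weeks, a mean of -0.38 ± 0.005 (n = 2), or 0.77-fold. At 20 weeks they averaged -0.03 and -0.04, a mean of -0.04 ± 0.009, with 40.3% of all genes lower. The dye pairs agreed more closely here than for any other of the 6, against a median SD over all genes of 0.18 at 11 weeks and 0.17 at 20 weeks. The average hides a difference between probes: probe 7399, listed with a RefSeq transcript, gave -0.63 and -0.56 at 11 weeks. Probe 2828, listed with a GenBank record, gave -0.12 and -0.20. At 20 weeks the means were -0.13 for probe 7399 and 0.05 for probe 2828.

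**Figure D2:**
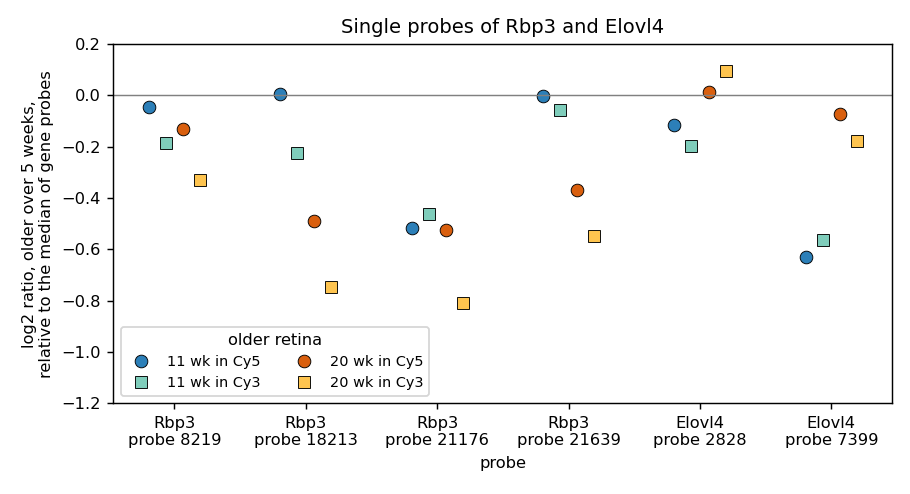
Log2 ratio of the older over the 5-week retina (vertical axis, relative to the median of gene probes) for each of the 4 Rbp3 and 2 Elovl4 probes, with 1 point per array. Probe 21176 of Rbp3 and probe 7399 of Elovl4 stand near -0.5 and -0.6 at 11 weeks, below the other probes of their genes.

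The array with the older retina in Cy3 gave the lower value for 5 of the 6 genes at 11 weeks and for all 6 at 20 weeks, against 48.7% and 51.2% of all genes. The median of the 6 was -0.33 in Cy5 and -0.43 in Cy3 at 11 weeks, and -0.28 in Cy5 and -0.70 in Cy3 at 20 weeks. Of all genes, 12.0% and 4.24% lay below those 11-week medians, and 14.7% and 0.622% below the 20-week ones. Both arrays below -0.4 were found for 1 gene at 11 weeks, Rcvrn, and for 2 at 20 weeks, Rcvrn and Guca1b, against 0.508% and 0.932% of all genes. Rcvrn was therefore the only one of the 6 beyond that value on all 4 arrays. Each age's mean holds both dye orientations once, so a dye effect of equal size on both arrays cancels in the means of Gngt1 and Prph2 and remains in their SD.

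**Figure D3:**
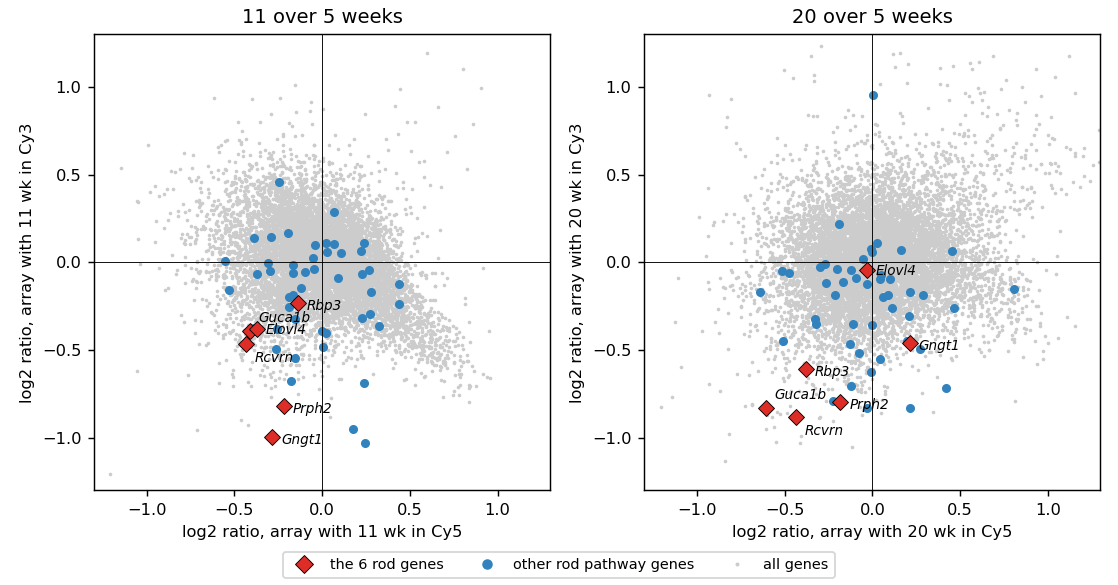
Log2 ratio on the array with the older retina in Cy5 (horizontal axis) against that on the array with it in Cy3 (vertical axis), for 11 weeks (left) and 20 weeks (right), with the 6 rod genes as red diamonds, the 47 other rod pathway genes in blue and all genes in grey; 4 genes at 11 weeks and 21 at 20 weeks lie outside the axes. The 6 genes sit below 0 on both axes except Gngt1 at 20 weeks, whereas many other pathway genes are below 0 in Cy3 only. Placed on the ratios as deposited, 1 of the 6 would remain there at 20 weeks.

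Centring decides the sign of some of these values. As deposited, the median gene stood at 0.06 at 11 weeks and at 0.29 at 20 weeks, mostly through the 20-week array with the older retina in Cy5, whose median gene probe was at 0.54. On that scale all 6 genes were still below 0 on both arrays at 11 weeks, with a median of -0.38. At 20 weeks, 1 of the 6 was below 0 on both arrays as deposited, and 4 had a mean below 0. The deposited 20-week means of Gngt1 and Elovl4 were 0.15 and 0.24. The 20-week values are thus low relative to the other genes of the same array, and the deposited ratios alone would not place all of them below the 5-week retina.

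Between the older ages the 6 genes went different ways. Means at 20 weeks minus those at 11 weeks were 0.52 for Gngt1 and 0.34 for Elovl4, 0.03 for Prph2, -0.21 for Rcvrn, -0.31 for Rbp3 and -0.32 for Guca1b. The retinoid carrier and both calcium sensors were lower at 20 weeks than at 11 weeks, while the transducin subunit and the elongase were nearer to the median probe. The median difference of -0.09 turned to 0.14 as deposited. Leaving out an 11-week array gave 0.07 (without Cy5) and -0.25 (without Cy3). Leaving out a 20-week array gave -0.35 (without Cy5) and 0.17 (without Cy3). As deposited, the single differences were 0.75 for Gngt1, 0.57 for Elovl4, 0.26 for Prph2, 0.025 for Rcvrn, -0.07 for Rbp3 and -0.085 for Guca1b, so the direction for Rcvrn depends on the centring. The slides of the 2 ages were different ones, and slide cannot be told apart from age in this comparison. Over all genes, limma with a dye term passed 1.18% as lower and 3.55% as higher at 20 than at 11 weeks.

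The genes most like the 6 were sought by the distance over the 4 array values from their mean profile, which was -0.31, -0.55, -0.24 and -0.60 in the order 11 weeks in Cy5, 11 weeks in Cy3, 20 weeks in Cy5 and 20 weeks in Cy3. Nearest were Phyhd1 at a distance of 0.079, Ubl5 at 0.122, Gabarapl2 and Pnrc1 each at 0.184, and Rpl10 at 0.185. The 6 genes themselves were farther from their own mean, from 0.349 for Prph2 to 0.652 for Gngt1, and between 119 and 1058 other genes were at least as near as a given one of them. Rpl10 encodes a ribosomal protein and Gabarapl2 a protein of autophagy. Nearest to single genes were Rps29 for Gngt1, Rsrp1 for both Rcvrn and Guca1b, Slc25a3 for Rbp3 and Esd for Elovl4. For Prph2 it was Cdhr1, which encodes a cadherin of the base of the outer segment, at a distance of 0.215.

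A wider view came from 9 lists of genes by role, written with earlier results of these arrays in view, of which 47 genes besides the 6 were measured. Pde6b, Pde6g, Rom1, Rdh12, Rlbp1, Nrl and Nr2e3 were not analysed here. Of the 47, 18 were lower on both arrays at 11 weeks (38.3%, against 20.2% of all genes) and 7 higher (14.9%, against 20.5%). At 20 weeks 23 were lower on both (48.9%, against 26.7% of all genes) and 4 higher (8.51%, against 27.1%). Their medians were -0.09 at 11 weeks and -0.12 at 20 weeks, beside 0.02 and 0.01 over all genes. As deposited, 1 of the 47 was lower on both arrays at 20 weeks and their median was 0.15, still under the deposited median gene.

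Tests across all genes used limma on the 4 arrays, with calls at a Benjamini-Hochberg adjusted p under 0.05. Without a dye term, 0 genes of 9652 passed at either age, with 367 at an unadjusted p under 0.05 at 11 weeks and 888 at 20 weeks. With a gene-wise dye term common to the 4 arrays, which leaves 1 residual degree of freedom, 6.34% of all genes passed as lower and 2.61% as higher at 11 weeks, and 13.9% and 17.8% at 20 weeks. In that model, 9 of the 47 other pathway genes passed as lower and 0 as higher at 11 weeks (19.1% and 0.0%), and 15 as lower and 3 as higher at 20 weeks (31.9% and 6.38%). For 20 against 11 weeks, 1 of the 47 passed as lower (Rorb) and 2 as higher (Cep290 and Elovl6), against 1.18% and 3.55% of all genes. With the dye term on the ratios as deposited, 0 of the 47 passed as lower at either age. Below, "passed" means an adjusted p under 0.05 in the limma model with the dye term. That model takes the gap between dyes out of the spread, so its p does not measure the SD printed beside a mean.

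Among the partners of Gngt1, all 3 measured genes passed as lower at 11 weeks, and 2 at 20 weeks, against 6.34% and 13.9% of all genes. The dye pairs, however, had opposite signs for 2 of the 3 at each age. Gnat1, the alpha subunit of rod transducin, was at 0.18 in Cy5 and -0.95 in Cy3 at 11 weeks, and at -0.12 and -0.71 at 20 weeks. Its means were -0.39 ± 0.80 and -0.42 ± 0.41 (SD, n = 2). The adjusted p was 0.0292 and 0.00779 in limma with a dye term, and 0.999 and 0.724 in limma without it. Gnb1, the beta subunit, had a still wider gap, with 0.25 in Cy5 against -1.03 in Cy3 at 11 weeks and 0.22 against -0.83 at 20 weeks. Pdc, phosducin, which binds the beta and gamma subunits, was at -0.15 and -0.55 at 11 weeks, where it passed, and at 0.27 and -0.49 at 20 weeks, where it did not. Gnat1, Gnb1, Pdc and Gngt1 were each lower in Cy3 than in Cy5 at both ages.

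Of the 4 genes of the phosphodiesterase group, 1 passed as lower at each age. Pde6a, the alpha subunit of the enzyme, was at 0.06 at 11 weeks and 0.02 at 20 weeks and did not pass. Unc119, a chaperone that carries lipid-modified transducin, was lower on both arrays at both ages and passed each time, with means of -0.38 ± 0.16 and -0.30 ± 0.31. Pde6d, a carrier of prenylated proteins, and Aipl1, the chaperone of the phosphodiesterase, did not pass at either age.

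Of the 4 channel and ion transport genes measured, 1 passed as lower at 11 weeks and 3 at 20 weeks, while 0 passed for 20 against 11 weeks. Cnga1, the alpha subunit of the rod channel, was at -0.39 and -0.38 on the 11-week arrays, an agreement as close as that of Rcvrn, and passed there with a mean of -0.38 ± 0.010 (adjusted p 0.0165). At 20 weeks it was at -0.18 ± 0.25 and did not pass. Cngb1, the beta subunit, Slc24a1, the sodium, calcium and potassium exchanger, and Atp1b2, a sodium pump subunit, did not pass at 11 weeks. At 20 weeks they passed as lower with means of -0.40, -0.32 and -0.51. All 4 genes of this group were lower on both arrays at 20 weeks, against 26.7% of all genes. In Cy5, however, Cnga1 was at -0.004 and Slc24a1 at -0.006, so their place in that count rests on values at the median probe. As deposited, Cngb1 was the 1 gene of the 47 that stayed lower on both 20-week arrays.

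Shut-off genes other than Rcvrn did not pass at either age. Grk1, the kinase that recoverin restrains, was at 0.07 ± 0.064 at 11 weeks and at -0.09 on each 20-week array. Sag, the rod arrestin, showed opposite signs in both pairs, at 0.24 in Cy5 against -0.69 in Cy3 at 11 weeks and 0.42 against -0.71 at 20 weeks. Rgs9, which speeds the shut-off of transducin, was at 0.08 and 0.12, and Gnb5, its partner, at 0.00 and -0.08.

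Guca1b had a relative among the lower genes. Guca1a, the other guanylate cyclase activating protein measured, was at -0.24 ± 0.12 at 11 weeks and -0.23 ± 0.17 at 20 weeks. It was below 0 on all 4 arrays and passed at both ages, at 11 weeks only just (adjusted p 0.0495 and 0.0245, limma with a dye term). The retinal cyclases they act on, Gucy2e and Gucy2f, did not pass, with means between -0.05 and 0.08.

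Among 11 other genes of discs and outer segment structure, 1 passed as lower at 11 weeks (9.09%, against 6.34% of all genes). At 20 weeks 5 passed as lower (45.5%, against 13.9%) and 1 as higher (9.09%, against 17.8%). Cdhr1 was at -0.43 ± 0.36 at 11 weeks and -0.43 ± 0.57 at 20 weeks and passed both times, with the Cy3 array lower at each age, like Prph2. Prom1, a membrane protein of nascent discs, passed at 20 weeks with -0.32 on both arrays. Impg2, a matrix proteoglycan around photoreceptors, passed at 20 weeks at -0.30, and Kif3a, a motor of ciliary transport, at -0.27. Cep290, of the connecting cilium, was the gene that passed as higher, at 0.48 ± 0.67, with 0.00 in Cy5 against 0.96 in Cy3. Fscn2, an actin bundler, had opposite signs within both pairs and did not pass.

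In the visual cycle, beside Rbp3, Abca4, the disc transporter of retinoid lipids, passed as lower at 20 weeks with -0.21 and -0.19 and was at -0.02 at 11 weeks. Rdh11, Rdh14 and Retsat did not pass. Among genes of fatty acid synthesis, Elovl2, the elongase that feeds docosahexaenoate synthesis, passed as lower at 20 weeks, with -0.51 in Cy5 and -0.45 in Cy3, where Elovl4 was near 0. At 11 weeks, where Elovl4 was at -0.38, Elovl2 was at -0.17 ± 0.18 and did not pass. Acsl6, an acyl-CoA synthetase, passed as lower at 11 weeks at -0.34. At 20 weeks Fads2 passed as lower at -0.28, and Fads1 and Elovl6 as higher at 0.33 and 0.26. Fads1 had opposite signs within that pair, at 0.81 in Cy5 and -0.15 in Cy3. Elovl5 was at 0.03 and -0.14 and did not pass.

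Of the transcription factors, Crx was at -0.19 and -0.26 on the 11-week arrays and at 0.04 and -0.55 on the 20-week arrays, and did not pass at either age (adjusted p 0.14 and 0.0513, limma with a dye term). Neurod1 passed as lower at 11 weeks at -0.32 and Rorb at 20 weeks at -0.34. Otx2 and Rxrg did not pass.

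**Figure D4:**
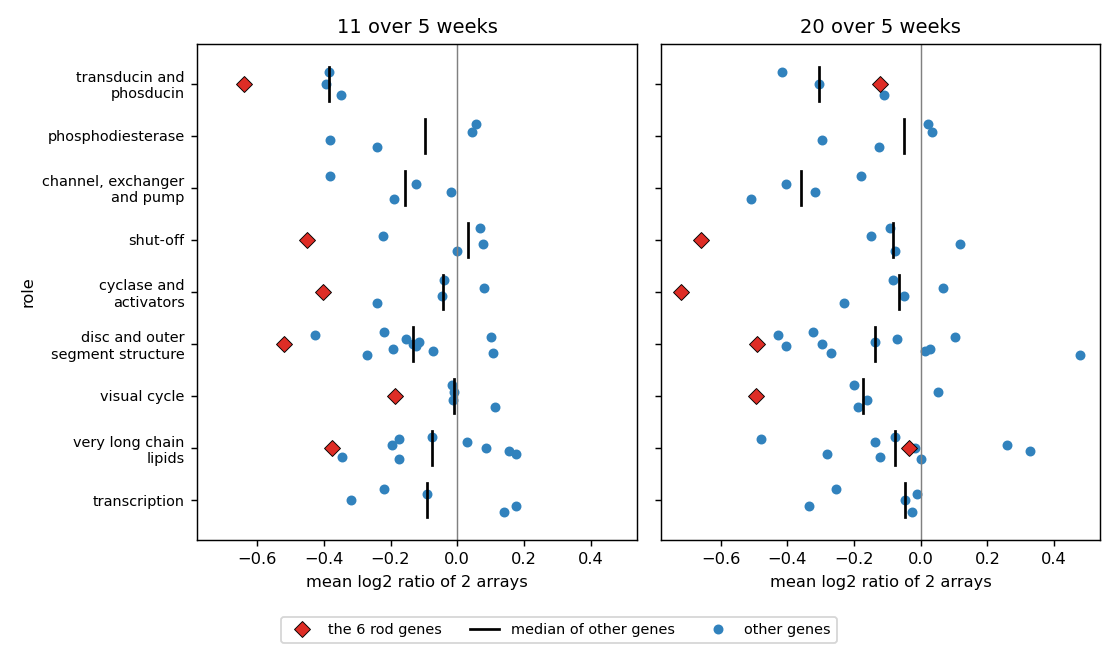
Mean log2 ratio of 2 arrays, older over 5 weeks and relative to the median of gene probes (horizontal axis), for the genes of each role (vertical axis) at 11 weeks (left) and 20 weeks (right), with the 6 rod genes as red diamonds, other genes in blue and the median of the other genes as a black bar. The diamonds lie left of their group's bar except for Gngt1 and Elovl4 at 20 weeks, and the bars of 8 of 9 roles at 11 weeks and of all 9 at 20 weeks are below 0, which does not hold for the ratios as deposited at 20 weeks.

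Markers of other cells moved beside these genes, and their part in the values above was not tested. Lens genes, which a dissection can carry over, were lower on both arrays in 7 of 11 at 11 weeks and 6 of 11 at 20 weeks (63.6% and 54.5%, against 20.2% and 26.7% of all genes), with medians of -0.30 and -0.18. Cryaa, the lens alpha-A crystallin, was at -0.83 and -0.99. Müller cell markers were lower on both arrays in 4 of 11 at 11 weeks and 8 of 11 at 20 weeks (36.4% and 72.7%, against 20.2% and 26.7% of all genes), with medians of -0.12 and -0.29. Glul, their glutamine synthetase, was at -0.45 at both ages. Its arrays gave -0.28 in Cy5 and -0.62 in Cy3 at 11 weeks, and -0.05 and -0.84 at 20 weeks. Cone genes were lower on both arrays in 3 of 8 at 11 weeks and 0 of 8 at 20 weeks (37.5% and 0.0%, against 20.2% and 26.7% of all genes), with medians of -0.04 and 0.04. Gnat2, the cone transducin alpha subunit, passed as lower at 11 weeks with -0.37 and was at 0.02 at 20 weeks, where it did not pass. Opn1mw, a cone opsin, passed as higher at both ages with 0.32 and 0.39. Rod markers other than the 6 genes were lower on both arrays in 1 of 5 at 11 weeks and 3 of 5 at 20 weeks. These shares were 20.0% and 60.0%, against 20.2% and 26.7% of all genes, with medians of -0.22 and -0.15. At 11 weeks the rod share was thus like that of all genes and below that of the cone list. The difference between rod and cone genes was not tested.

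Bipolar, amacrine and horizontal, and ganglion cell markers had medians between -0.08 and -0.05 at 11 weeks and between -0.23 and -0.06 at 20 weeks. By the mean of the 4 arrays, the lowest of each were Pcp2 (-0.23), Gad1 (-0.30) and Nrn1 (-0.455), and the highest Gng13 (0.016), Th (0.13) and Slc17a6 (0.038). Pigment epithelium markers had medians of 0.12 and 0.08, with ranges from -0.45 to 0.44 at 11 weeks and from -0.34 to 0.77 at 20 weeks. Ttr, which encodes transthyretin, was at -0.45 and -0.13, and the tyrosinase gene Tyr at 0.44 and 0.77. Blood markers had medians of 0.09 and 0.14, with Slc4a1 at 0.12 and 0.045 and Alas2 at 0.09 and 0.25. Muscle markers had medians of -0.02 and 0.36, and all 4 measured were higher on both arrays at 20 weeks, against 27.1% of all genes, with Mb at -0.24 and 0.46 and Tnni2 at -0.02 and 0.40. By the mean of the 4 arrays, Aqp4 was the highest Müller cell marker, at 0.14, and Lim2 the highest lens gene, at 0.053. Gng13, Gad1, Th and Alas2 had opposite signs within both dye pairs.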

How the data were processed

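Gene expression was measured on 4 two-colour arrays of pooled rat retina. The authors' deposited values were read as a log2 ratio of Cy5 over Cy3 for each probe, since they are signed and stop at 16.61. How they were scanned, normalized or centred is not given in the sources used here. Of 22575 probes, 12750 had 1 gene symbol in the platform's annotation and were used, 5 had several and 9820 had none. Matching gene identifiers to GRCr8 found 12720 of them and changed 0 symbols. The median of each array over these probes was -0.045 and -0.13 on the 11-week arrays (older retina in Cy5, then Cy3) and 0.543 and -0.01 on the 20-week arrays. It was subtracted, each array was turned to older over 5 weeks, and genes were taken as the mean of their probes (9652 with values on every array). limma 3.58.1 in R 4.3.3 fitted both ages without a dye term (2 residual degrees of freedom), and with one as an alternative, and was tested on simulated data. Without intensities no background filter was possible, and the number of arrays limits the precision. The 6 genes, the lists and the models were chosen with earlier results of these data known. Named genes are the 6, a fixed list of phototransduction partners, the lowest and highest of each list by the mean of 4 arrays, and the nearest in profile. Others of the 9 role lists were named after their values were seen. Alternatives were other centrings, a common spread, the median of probes, ceiling values kept, and each array left out in turn.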

Additional observations from a re-analysis of the deposited data

Results flagged for a closer look

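Of the 6 rod genes and the 47 other pathway genes, 3 lay on opposite sides of the median probe at the 2 ages. Both arrays of each pair were in agreement for these 3. The pattern was about as common over all genes, at 538 of 9652 (5.57%). Rorb, a nuclear receptor of photoreceptor development, was at -0.34 at 20 weeks and 0.18 at 11 weeks, a difference of -0.51 with an adjusted p of 0.0175 in limma with a dye term and 1.0 without it. Fads2, a fatty acid desaturase, was at -0.28 and 0.18, a difference of -0.46 (adjusted p 0.0831 with a dye term in limma and 1.0 without). Its 20-week arrays gave -0.51 in Cy5 and -0.05 in Cy3. Grk1 was at -0.09 and 0.07, a difference of -0.16 (adjusted p 0.379 with a dye term in limma and 1.0 without). No array held both ages, and slide cannot be told apart from age here.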

How the results depend on the processing

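The median of the 6 genes at 11 weeks was -0.43, and from -0.43 to -0.33 with either array of the pair left out. At 20 weeks it was -0.49, -0.22 as deposited, and from -0.70 to -0.28 with an array left out. The median difference between ages was -0.09, and from -0.35 to 0.17 with an array left out. As deposited, 1 of the 6 and 1 of the 47 other pathway genes were lower on both arrays at 20 weeks, and the median of the 47 was -0.049 at 11 weeks and 0.15 at 20 weeks. With 1 array of a pair read alone, 25 to 33 of the 47 were lower at 11 weeks and 27 to 39 at 20 weeks (49.3% to 50.1% of all genes on each array), with medians of -0.045 without the Cy3 array at 11 weeks, and from -0.17 to -0.008 at 20 weeks. Over all genes, 0 passed without a dye term, against 864 at 11 weeks, 3057 at 20 weeks and 457 for 20 against 11 weeks with it, and 9 and 15 of the 47 passed as lower. As deposited, 95 genes passed at 20 weeks and 1 for 20 against 11 weeks without a dye term, and 133 and 1 with it (an alternative chosen after seeing the data). Leaving out an array gave 0 to 5 genes at 20 weeks. Of 84 single values of the 6 genes, including 12 as reported, 9 moved by more than their SD, and the sign turned for Gngt1 and Elovl4 at 20 weeks as deposited, and for Gngt1 at 20 weeks without the Cy3 array. Each array paired an older retina with the 5-week retina, and both arrays of an age formed a dye swap. No further pairing of pools across arrays was used, since the labels do not give it. Spot signals over background were not used here, so what dim spots limit could not be seen. The cause of these changes was not tested.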
